A study of Mus musculus with 6 samples.

Results

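The 10 YAP target genes Ctgf, Cyr61, Ankrd1, Amotl1, Amotl2, Axl, Ajuba, Lats2, Crim1 and Ptpn14 were followed through 6 RNA-seq libraries of sorted mouse mammary basal cells. They were found by gene symbol, and all 10 were among the 51826 gene symbols of the deposited count files, with Ctgf and Cyr61 (now also named Ccn2 and Ccn1) under their older names. A filter on low counts left 13873 genes for testing, among them 9 of the 10, and Ankrd1 did not pass it. The mice were pubertal, of strain C57B6/N and genotype SMAcreERT2/N1ICD, in which a tamoxifen-inducible Cre under a smooth muscle actin promoter acts beside an allele for the Notch1 intracellular domain. They received 1 dose of tamoxifen at postnatal day 21, and cells were taken 72 h later, at day 24. Each of 3 pools, of 2 to 3 mice, gave 1 library of cells with GFP (GFPpos) and 1 of cells without it (GFPneg), and the replicate number marks the pool. Both groups therefore carried the same alleles and received tamoxifen. Which allele carries GFP is not given in the sources used here, and GFPpos cells without the Notch1 allele were not part of the design.

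YAP and its relative TAZ are transcriptional coactivators that the Hippo kinases (MST and LATS) hold in the cytoplasm. When they enter the nucleus they bind DNA through TEAD factors and raise a set of genes that is widely read as a measure of their activity. In the mammary gland YAP and TAZ are known for their part in the basal and stem-like state of epithelial cells and for responding to cell shape and matrix stiffness. The set followed here holds secreted matricellular proteins (Ctgf, Cyr61), a nuclear ankyrin repeat protein (Ankrd1), a receptor tyrosine kinase (Axl), a membrane protein that binds growth factors (Crim1) and feedback inhibitors of YAP (Lats2, Amotl1, Amotl2, Ptpn14), together with the LIM protein Ajuba, which restrains LATS kinases.

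Matches to the motif of TEAD factors near the members' start sites are shown first, because these factors carry YAP to DNA. RefSeq start-site windows (build GRCm38.p6, 250 bases before to 50 after the start, 300 in all) were found for 9 of the 10 members, and Ctgf had no entry. The motif GGAATG, searched on both strands, was present in 8 of these 9 genes (8 of 10 windows, since Lats2 has a pair of starts). Of the 32851 windows of this length in the RefSeq table, 14.7% held it. Positions are given for the first base of the match on the gene's strand, with the start site as base 1. Each site below is 26 bases long and is printed 5′ to 3′ on the strand that reads GGAATG, with the motif in capitals.
Cyr61, position -103, chr3:145650073-145650098, plus strand: aaacatctcaGGAATGttggttggcg
Axl, position -233, chr7:25788951-25788976, minus strand: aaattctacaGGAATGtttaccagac
Lats2, position 5, chr14:57746104-57746129, minus strand: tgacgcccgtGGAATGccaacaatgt
Ajuba, position -186, chr14:54577832-54577857, plus strand: ggggcactgtGGAATGtatccatcaa
Ajuba, position -164, chr14:54577810-54577835, plus strand: gtttacagttGGAATGcgcggagggg
Amotl2, position -65, chr9:102717729-102717754, minus strand: tgctatgccaGGAATGtgagagtttc
Ptpn14, position -146, chr1:189728112-189728137, minus strand: gggcgggccaGGAATGcgtccgggga
Crim1, position -79, chr17:78200159-78200184, plus strand: ggcgggggggGGAATGaggtaggatg
Ankrd1, position -210, chr19:36120039-36120064, minus strand: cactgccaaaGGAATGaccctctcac
Ankrd1, position -123, chr19:36119952-36119977, minus strand: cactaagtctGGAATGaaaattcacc

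Cyr61, whose promoter is a standard TEAD reporter, is shown with all 250 bases before its start, chr3:145649986-145650235, on the gene's own minus strand. Its match reads there as the reverse complement, in capitals.
Cyr61: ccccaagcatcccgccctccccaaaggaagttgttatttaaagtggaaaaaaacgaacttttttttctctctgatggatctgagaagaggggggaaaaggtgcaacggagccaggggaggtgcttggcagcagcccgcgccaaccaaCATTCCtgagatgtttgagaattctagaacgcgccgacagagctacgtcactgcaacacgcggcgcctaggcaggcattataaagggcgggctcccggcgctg

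Ajuba and Ankrd1 each held 2 TEAD matches, and Amotl1 held none in its window. In GENCODE M21 the bases before the start overlap exons of the same gene for Amotl1, Amotl2 and Ankrd1, and an exon of AC154366.4 for Crim1. The RefSeq starts used for Ajuba (gene on chromosome 14, 54567472 to 54577558), Axl and Cyr61 lie upstream of their GENCODE M21 genes. The motif TGGGAA, which the Notch pathway factor RBPJ binds, was searched on both strands in the same windows. It was present in 2 of 9 members, Ajuba and Ankrd1, against 25.6% of all windows, and no match overlapped a TEAD match. The AP-1 motif TGANTCA (7.81% of all windows) and the CArG box of serum response factor (1.63%), each searched on both strands, were present in 0 members. A match describes the letters in a window and was not tested as a binding site.

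**Figure D1:**
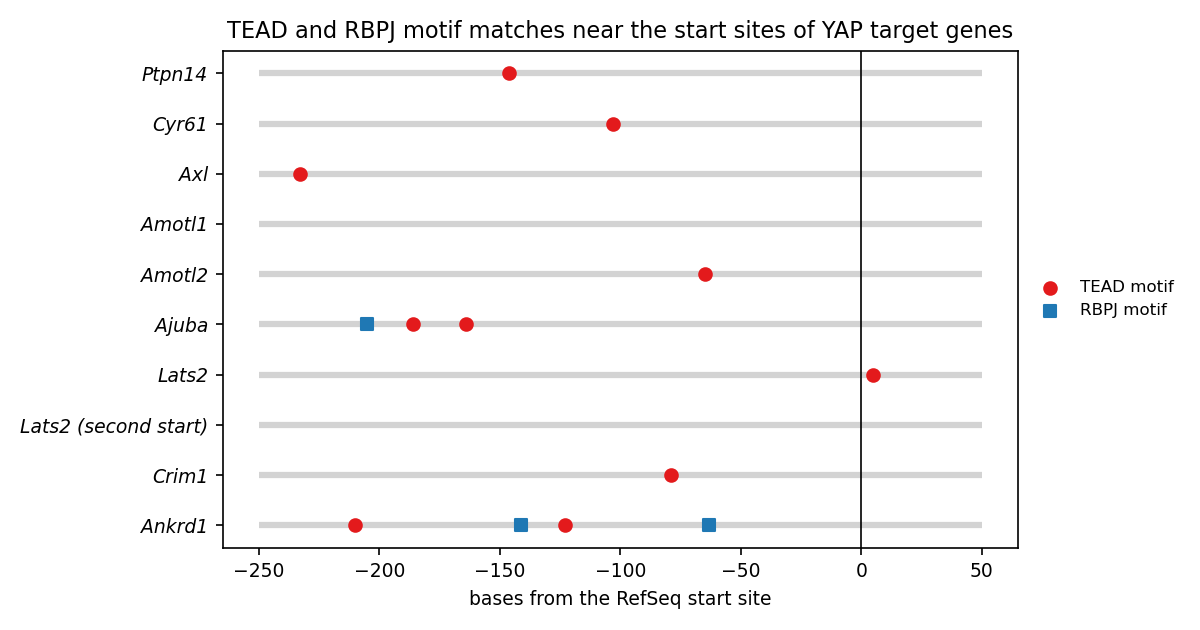
Positions of TEAD (red circles) and RBPJ (blue squares) motif matches in bases from the RefSeq start site, with 1 grey bar per 300-base window. TEAD matches lie in 8 of 10 windows, between -233 (Axl) and 5 (Lats2), and RBPJ matches in those of Ajuba and Ankrd1.

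The depth of the libraries limits what could be seen. GFPneg replicate 1 held 611465 gene counts and the other libraries 9912610 to 16043492. Levels are CPM, counts relative to library sizes scaled by TMM factors that balance the composition of the libraries. A single count was worth 3.28 CPM in GFPneg replicate 1 and 0.0513 to 0.0911 CPM elsewhere. There, 5 abundant noncoding features took 69.2% of the gene counts, against 22.7% to 34.7% in the others, so results are given with and without it. Intervals on single values above 0 are 95% exact Poisson intervals and cover counting error only. The basal label fits its markers: the summed level of 9 basal genes, among them Krt5, Krt14 and Trp63, was 6476 to 13641 CPM in the 6 libraries. That of 8 luminal genes was 781 to 1055 CPM in GFPpos and 367 to 732 CPM in GFPneg libraries, without overlap. Taken singly, 2 of these 8 genes had groups that did not overlap, both higher in GFPpos cells. The log2 fold change (GFPpos over GFPneg) was negative for 3 of the 8, and 6 of 8 were lower in GFPpos cells of replicate 3. In GFPneg replicate 1, 3 of the 8 had 0 counts. The part of luminal RNA in the results below was not tested.

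No YAP target gene passed the test between GFPpos and GFPneg cells, although most had lower values in GFPpos cells. Of the 9 tested members, 8 had negative log2 fold changes (GFPpos over GFPneg), with a median of -0.68. Over all 13873 genes tested, 42.5% were negative and the median was 0.15. Over the 2868 genes averaging at least 50 CPM, a set chosen after the data were seen, these were 49.6% and 0.0056. In edgeR's quasi-likelihood test 0 of 9 members had a Benjamini-Hochberg adjusted p below 0.05, against 0.0649% of all genes tested. At an unadjusted p below 0.05 the count was 1 of 9 (Ctgf), against 5.26% of all genes. With the pool as a replicate block 0 of 9 were called (0.440% of all genes), with DESeq2 0 of 9 (0.771%) and with limma-voom 0 of 9 (0.562%). In whole-population RNA, fewer cells of a type and less RNA per cell cannot be told apart.

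Ctgf and Cyr61 encode CCN proteins that are secreted into the matrix and bind integrins, and both are classic readouts of YAP. Ctgf (chromosome 10, 24595442 to 24598683, mm10) stood at 449, 788 and 613 CPM in GFPneg replicates 1, 2 and 3, and at 283, 472 and 268 CPM in GFPpos replicates 1, 2 and 3. Each GFPpos library was below the GFPneg library of its own pool, while GFPpos replicate 2 lay above GFPneg replicate 1, so the groups overlapped. The group levels were 341 ± 114 CPM in GFPpos against 617 ± 169 CPM in GFPneg cells (SD, n = 3), a log2 fold change of -0.86 (SE 0.40, 95% interval -1.71 to -0.01) that did not pass edgeR's threshold (adjusted p = 0.938).

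Cyr61 (chromosome 3, 145646976 to 145649981) stood at 220, 428 and 435 CPM in GFPneg and at 185, 202 and 255 CPM in GFPpos replicates 1, 2 and 3. It was lower in GFPpos cells of all 3 pairs, with the smallest gap in replicate 1. In that pair the GFPneg value rested on 67 counts, with an interval of 170 to 279 CPM that includes the GFPpos value. The log2 fold change was -0.76 (SE 0.40) and did not pass edgeR's threshold (adjusted p = 1.00). Without GFPneg replicate 1 the log2 values were -1.02 (SE 0.31) for Ctgf and -0.99 (SE 0.26) for Cyr61, and neither passed there (edgeR adjusted p = 0.221 and 0.146).

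The other CCN genes were scarce. The level of Nov (Ccn3) was 9.09 ± 7.03 CPM in GFPpos against 1.67 ± 1.56 CPM in GFPneg cells (SD, n = 3). It did not pass edgeR's threshold (log2 2.08, SE 1.16, adjusted p = 1.00). Every GFPpos value was above every GFPneg value, as for 1322 of the 13873 genes tested. GFPneg replicate 1 had 0 counts of Nov, and a limit of 3 counts there is 9.84 CPM. That limit exceeds the GFPpos values of replicates 2 and 3 (4.98 and 5.09 CPM), so separation from that library was not measured. Wisp1 averaged 1.76 ± 1.17 and 1.01 ± 1.75 CPM, Wisp2 was too low to be tested, and Wisp3 had 0 counts in every library.

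Axl and Lats2 were the members whose groups did not overlap. Axl (chromosome 7, 25757273 to 25788705) encodes a receptor tyrosine kinase of the TAM family. It stood at 292, 197 and 270 CPM in GFPneg and at 151, 174 and 145 CPM in GFPpos replicates 1, 2 and 3. All 3 GFPpos libraries were below all 3 GFPneg libraries, and the pair of replicate 2 was the closest. The log2 fold change was -0.68 (SE 0.39, 95% interval -1.50 to 0.14), which did not pass edgeR's threshold (adjusted p = 1.00).

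Lats2 (chromosome 14, 57689662 to 57758388) encodes a kinase that phosphorylates and inhibits YAP, and is itself a YAP target, so that it closes a feedback loop. It stood at 105, 93.0 and 140 CPM in GFPneg and at 55.6, 55.6 and 72.7 CPM in GFPpos replicates 1, 2 and 3. The GFPneg value of replicate 1 rested on 32 counts. Its interval of 71.8 to 148 CPM includes the GFPpos value of replicate 3, so separation of these libraries was within counting error. The pair ratios were alike, at -0.90, -0.73 and -0.93 (log2 of CPM + 1, GFPpos over GFPneg). The fitted log2 fold change was -0.88 (SE 0.44, 95% interval -1.82 to 0.06), and Lats2 did not pass edgeR's threshold (adjusted p = 1.00). Over all genes tested, 3.63% had GFPpos values wholly below the GFPneg values, and 2 of 9 members did. Without GFPneg replicate 1 this held for 7 of 9 members (the exceptions were Amotl2 and Crim1), against 13.6% of all genes. Genes averaging at least 50 CPM gave 6.90% with the 6 libraries and 19.4% without GFPneg replicate 1, a set chosen after the data were seen. The members share their libraries, so their counts are not independent.

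**Figure D2:**
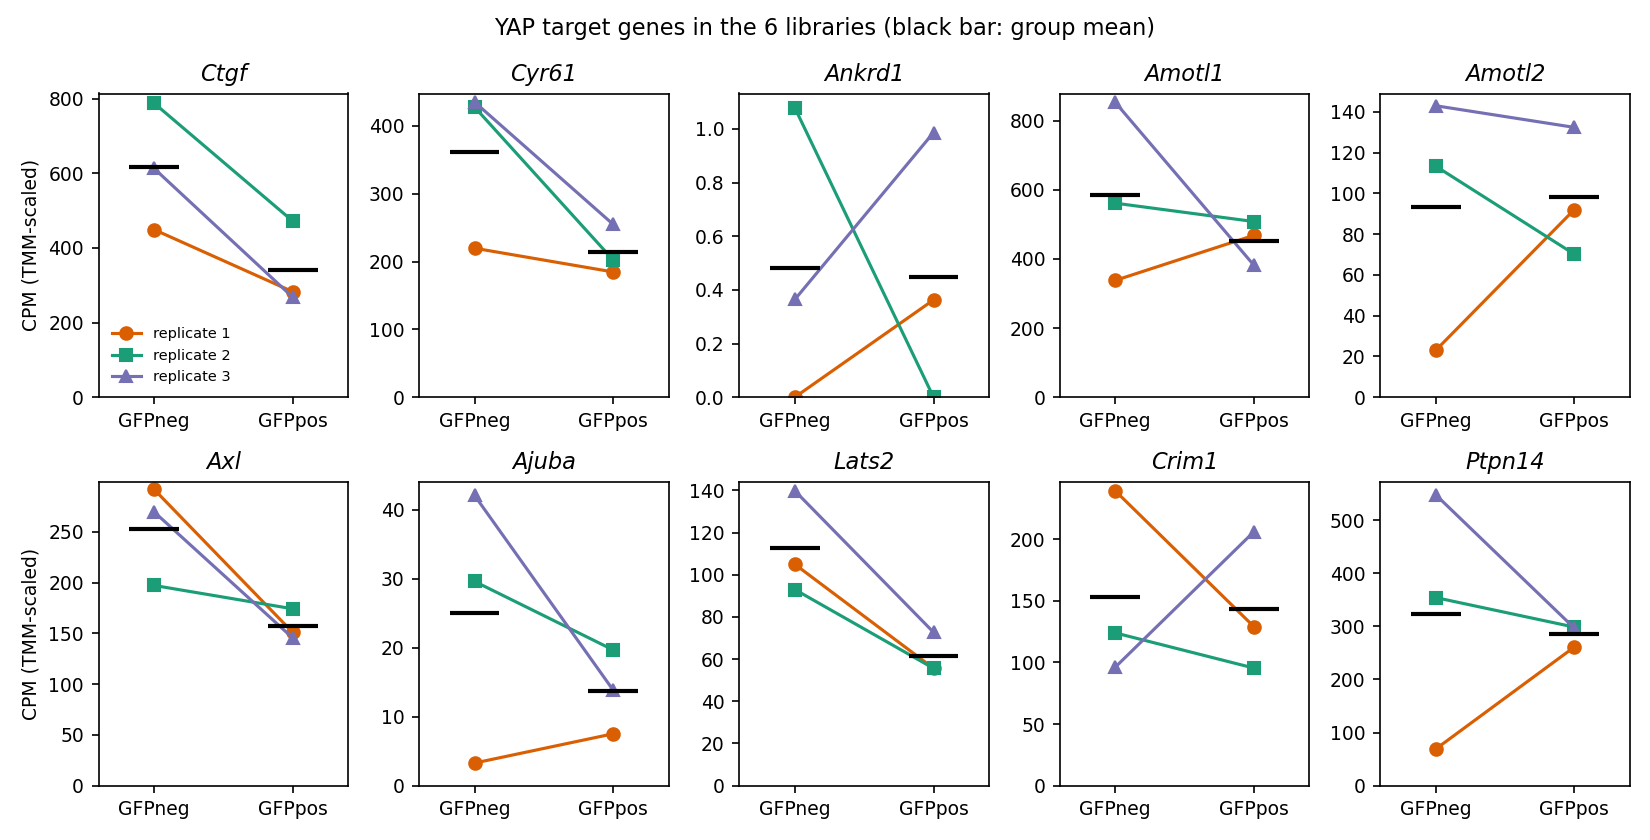
Level of each YAP target gene in CPM (linear axis from 0) in GFPneg and GFPpos libraries, with lines joining the fractions of 1 pool and black bars for the group means. Ctgf, Cyr61, Axl and Lats2 slope down in all 3 pairs, whereas Amotl1, Amotl2, Ajuba and Ptpn14 slope up in replicate 1.

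Axl's relatives and ligands gave small differences. Gas6, which encodes the Axl ligand, averaged 251 ± 16.8 CPM in GFPpos against 312 ± 76.1 CPM in GFPneg cells, and Pros1, which encodes a ligand of the related receptors, 146 ± 28.3 and 167 ± 94.6 CPM (SD, n = 3). The receptor genes Tyro3 (16.1 ± 8.18 against 11.8 ± 2.40 CPM) and Mertk (18.7 ± 11.4 against 17.2 ± 15.2 CPM) were lower than Axl in each group, also per kilobase of exon. The adjusted p of edgeR's test was 1.00 for each of these 4 genes, and none had an unadjusted p below 0.05.

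The angiomotin-like genes Amotl1 and Amotl2 encode junction proteins that bind YAP and keep it out of the nucleus. Amotl1 (chromosome 9, 14541966 to 14645056) stood at 338, 561 and 852 CPM in GFPneg and at 468, 508 and 381 CPM in GFPpos replicates 1, 2 and 3. It was lower in GFPpos cells of replicates 2 and 3 and higher in replicate 1, and the GFPneg libraries spread more widely than the GFPpos libraries. Its log2 fold change was -0.37 (SE 0.41, edgeR adjusted p = 1.00). Without GFPneg replicate 3 it was 0.0045, so that this library decided its sign.

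Amotl2 (chromosome 9, 102716672 to 102733418) stood at 23.0, 113 and 143 CPM in GFPneg and at 92.1, 70.2 and 132 CPM in GFPpos replicates 1, 2 and 3. The low GFPneg value of replicate 1 rested on 7 counts, with an interval of 9.23 to 47.3 CPM that lies below the GFPpos value of its pool. The log2 fold change was 0.03 (SE 0.55) over the 6 libraries and -0.37 (SE 0.31) without GFPneg replicate 1, with edgeR adjusted p values of 1.00 and 0.874. The value was also negative without GFPpos replicate 3 (-0.24) and with limma-voom on the 6 libraries (-0.22), so it had no stable direction.

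Ptpn14 (chromosome 1, 189728268 to 189876695) encodes a tyrosine phosphatase that binds and restrains YAP. It stood at 68.9, 354 and 548 CPM in GFPneg and at 261, 298 and 297 CPM in GFPpos replicates 1, 2 and 3. The GFPpos libraries lay close together and the GFPneg libraries far apart. In GFPneg replicate 1 it had 21 counts, with an interval of 42.6 to 105 CPM, below the GFPpos value of the same pool. Its log2 fold change was -0.20 (SE 0.53) over the 6 libraries, 0.18 (SE 0.49) with the replicate block, -0.64 (SE 0.27) when GFPneg replicate 1 was left out and 0.40 when GFPneg replicate 3 was. It passed edgeR's threshold in none of these fits (lowest adjusted p = 0.482).

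Ajuba, a LIM domain protein of cell junctions that binds LATS kinases, was the least abundant tested member per kilobase of exon. It stood at 3.28, 29.6 and 42.1 CPM in GFPneg and at 7.52, 19.7 and 13.9 CPM in GFPpos replicates 1, 2 and 3. The GFPneg value of replicate 1 was a single count (interval 0.0830 to 18.3 CPM), so the opposite direction of that pair was within counting error. The log2 fold change was -0.97 (SE 0.81) with the 6 libraries and -1.37 (SE 0.49) without GFPneg replicate 1, the most negative of the members in both fits, and did not pass edgeR's threshold in either (adjusted p = 1.00 and 0.358).

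Crim1 (chromosome 17, 78200248 to 78376592), a transmembrane protein that binds BMP family growth factors, was close to level between the groups. It stood at 239, 124 and 96.2 CPM in GFPneg and at 129, 95.5 and 206 CPM in GFPpos replicates 1, 2 and 3. The high libraries were GFPneg replicate 1 and GFPpos replicate 3, 1 in each group, and the log2 fold change was -0.07 (SE 0.47, edgeR adjusted p = 1.00). It was 0.40 (SE 0.34) without GFPneg replicate 1, 0.02 without GFPpos replicate 1, 0.15 without GFPpos replicate 2, 0.27 with limma-voom and 0.39 with library size only, so it had no stable direction either. These were also the libraries with the highest summed level of 10 endothelial markers, at 1882 and 2401 CPM against 599 to 984 CPM in the other 4. In GFPneg replicate 1 that sum rested mainly on Pecam1 (718 CPM) and Vwf (643 CPM), whereas Kdr (36.1 CPM) was lowest there of the 6 libraries and Emcn had 0 counts. The part of endothelial RNA in the Crim1 values was not tested.

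Ankrd1 (chromosome 19, 36111961 to 36120099), a nuclear ankyrin repeat protein best known from strained muscle and a strong YAP target in many cultured cells, was close to the detection limit. Its counts were 0, 21 and 4 in GFPneg and 4, 0 and 19 in GFPpos replicates 1, 2 and 3. The highest levels were 1.08 CPM (GFPneg replicate 2) and 0.986 CPM (GFPpos replicate 3). Taken as a limit of 3 counts, a count of 0 allows up to 9.84 CPM in GFPneg replicate 1 and 0.233 CPM in GFPpos replicate 2 (the exact Poisson upper ends are 12.1 and 0.287 CPM). The libraries with and without Ankrd1 counts fell in both groups, and no difference was detectable at this depth.

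Levels per kilobase of exon allow the members to be ordered. Over GFPneg libraries the level in CPM per kilobase was 216 ± 59.2 for Ctgf and 179 ± 60.6 for Cyr61 (SD, n = 3), which did not differ beyond their spread. Amotl1 (58.0 ± 25.6) and Axl (50.2 ± 9.83) followed, again within each other's spread, and then Crim1 (25.6 ± 12.7), Ptpn14 (24.1 ± 17.96), Lats2 (16.1 ± 3.49), Amotl2 (14.8 ± 9.95) and Ajuba (6.86 ± 5.43), whose neighbours overlapped. Ankrd1 was lowest at 0.167 ± 0.190 CPM per kilobase. In GFPpos libraries the order was the same for the 4 highest members, with Ctgf at 119 ± 39.8, Cyr61 at 106 ± 18.1, Amotl1 at 45.0 ± 6.42 and Axl at 31.2 ± 3.03 CPM per kilobase. Lats2 was below Amotl2 there (8.80 ± 1.42 against 15.6 ± 5.02).

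By pool, replicate 1 stood apart from the others. In replicate 2 all 9 tested members were lower in GFPpos cells and in replicate 3 all but Crim1, against 52.3% and 48.0% of all genes tested. In replicate 1 the count was 5 of 9 (Ctgf, Cyr61, Axl, Lats2 and Crim1), against 24.5% of all genes. The median log2 ratio of CPM + 1 over the tested members was -0.25, -0.57 and -0.89 in replicates 1, 2 and 3. The median over all genes was 1.34, -0.03 and 0.05. Over the 2868 genes averaging at least 50 CPM it was 0.42, 0.02 and -0.14, so the upward shift of replicate 1 was present for abundant genes as well.

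**Figure D3:**
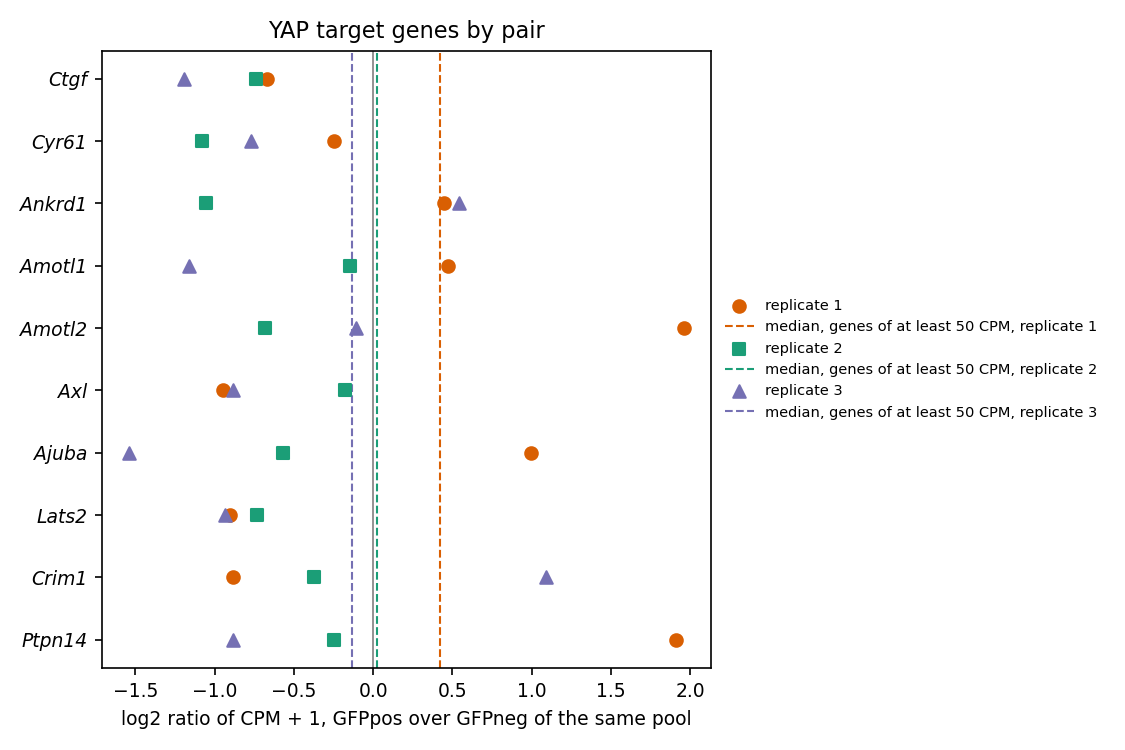
Log2 ratio of CPM + 1 (GFPpos over GFPneg of the same pool) for each YAP target gene in replicates 1 (circles), 2 (squares) and 3 (triangles), with dashed lines at the median of genes averaging at least 50 CPM (0.42, 0.02 and -0.14). Replicate 2 and 3 points lie mostly left of 0, and the replicate 1 points of Amotl1, Amotl2, Ptpn14 and Ajuba lie to the right.

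In the fit of pairs 2 and 3 alone with the replicate block, 0 of the 10 members, all testable there, passed edgeR's threshold, against 3.92% of all genes. The smallest adjusted p were 0.0863 for Ctgf (log2 -0.95, SE 0.33) and 0.0935 for Cyr61 (log2 -0.91, SE 0.32). This fit leaves few residual degrees of freedom per gene, and its p-values rest mostly on a spread shared over genes. They therefore say little about how well the pairs of a single gene agree. Without GFPneg replicate 1 and with no block, 0 of 10 passed (0.602% of all genes), while 6 (Ctgf, Cyr61, Amotl1, Ajuba, Lats2 and Ptpn14) had an unadjusted p below 0.05, as did 9.13% of all genes. Ctgf, Cyr61, Axl, Ajuba and Lats2 had negative fold changes in each of the 15 fits made, and the other tested members changed sign in at least 1.

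**Figure D4:**
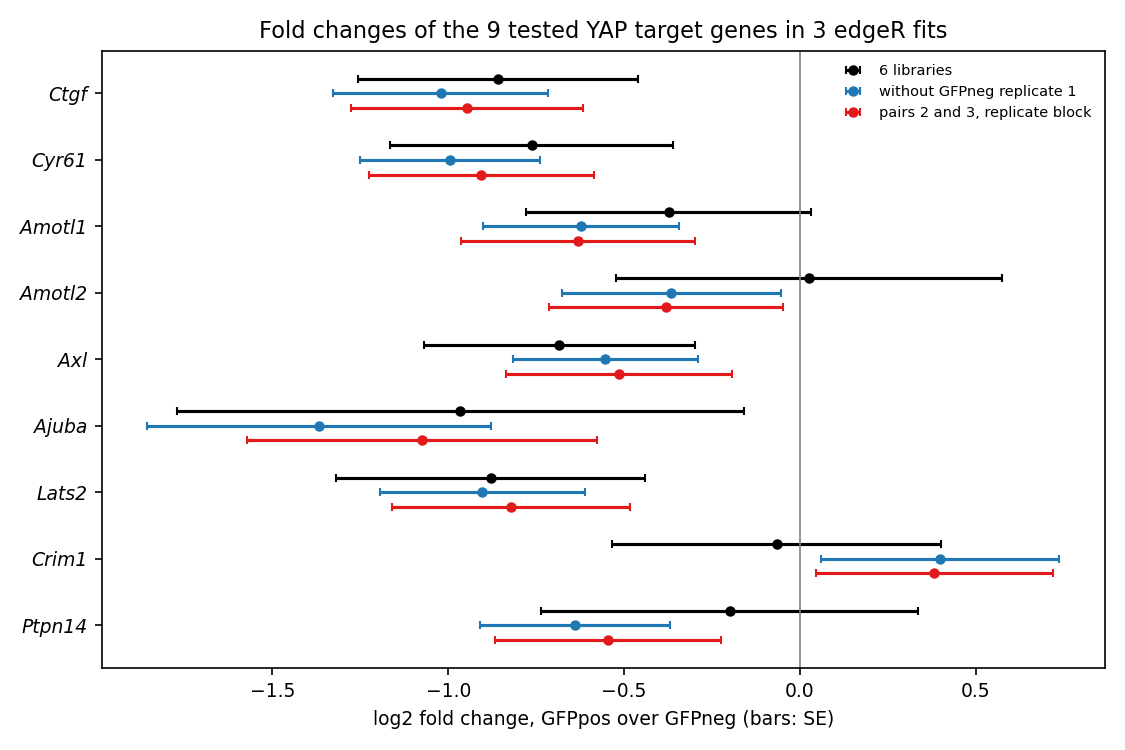
Log2 fold change (GFPpos over GFPneg) of the 9 tested YAP target genes with SE bars, in edgeR fits of the 6 libraries (black), without GFPneg replicate 1 (blue) and of pairs 2 and 3 with the replicate block (red). Ctgf, Cyr61, Axl, Ajuba and Lats2 lie left of 0 in all 3 fits, and Crim1 lies to the right in those that leave out GFPneg replicate 1.

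The genes that carry the Hippo signal were also measured. With the 6 libraries, 0 of 63 tested Hippo pathway and further target genes were called by edgeR, against the 0.0649% given above. Yap1 averaged 185 ± 15.9 CPM in GFPpos against 195 ± 73.1 CPM in GFPneg cells (log2 -0.08, SE 0.41). Wwtr1, which encodes TAZ, stood at 177, 170 and 187 CPM in GFPneg and at 118, 129 and 168 CPM in GFPpos replicates 1, 2 and 3. The groups of Wwtr1 did not overlap, and its log2 fold change of -0.37 (SE 0.39) did not pass (edgeR adjusted p = 1.00).

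Among the DNA-binding partners Tead1 was the most abundant, also per kilobase, at 166 ± 41.2 CPM in GFPpos against 173 ± 114 CPM in GFPneg cells, followed by Tead3 (42.7 ± 9.98 and 53.5 ± 2.40 CPM), Tead2 (13.7 ± 4.75 and 15.8 ± 15.3 CPM) and Tead4 (5.84 ± 5.67 and 2.89 ± 4.32 CPM; SD, n = 3). Vgll4, which encodes a TEAD corepressor, averaged 38.5 ± 14.7 and 58.3 ± 43.7 CPM, and Vgll1 and Vgll2 had 0 counts in every library. Of the 8 tested genes of this group 7 had negative fold changes, with a median log2 of -0.21, and 5 of 8 without GFPneg replicate 1 (median -0.31). Without that library Vgll4 turned from -0.52 to 0.23 and Tead2 from -0.0037 to 0.92.

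The kinase cassette and its scaffolds showed no common direction, with 9 of 16 tested genes negative and a median log2 of -0.11. Those with the smallest p were Wwc1, which encodes the scaffold KIBRA (34.2 ± 1.41 CPM in GFPpos against 69.0 ± 52.1 CPM in GFPneg cells), the kinase genes Taok2 (90.7 ± 18.3 and 141 ± 99.8 CPM) and Stk4 (36.5 ± 15.5 and 22.4 ± 8.90 CPM), and Sav1, which encodes the scaffold of MST kinases (65.2 ± 16.6 and 40.1 ± 20.8 CPM). The differences of Wwc1 and Taok2 rested on GFPneg replicate 1 (128 and 256 CPM): their log2 fold changes were -0.94 and -0.59 with it and -0.19 and 0.15 without it. Stk4 and Sav1 had their lowest values in the same library (13.1 and 16.4 CPM). Their log2 fold changes were 0.64 and 0.63 with it and 0.45 and 0.35 without it. At an unadjusted p below 0.05 the count was 0 of 16.

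Junction, polarity and LIM regulators were negative for 13 of 20 genes, with a median log2 of -0.28. Amot, which encodes angiomotin, the founding relative of Amotl1 and Amotl2, stood at 55.7, 21.3 and 41.3 CPM in GFPneg and at 14.1, 8.33 and 8.31 CPM in GFPpos replicates 1, 2 and 3. The groups did not overlap, and the log2 fold change of -1.90 (SE 0.70) did not pass edgeR's threshold with the 6 libraries (adjusted p = 0.745). Amot passed edgeR's threshold in the blocked fit of pairs 2 and 3 (log2 -1.81, adjusted p = 0.0480). In that fit 3.92% of all genes and 3 of the 63 were called, the others being Rassf1 and Arhgap29. These calls carry the limit given above for that fit, whose p-values rest mostly on a spread shared over genes. The protocadherin gene Fat4 averaged 83.0 ± 33.8 CPM in GFPpos against 169 ± 24.3 CPM in GFPneg cells, also without overlap (log2 -1.02, SE 0.44, adjusted p = 0.850). Rassf1, which encodes a binding partner of MST kinases, averaged 50.9 ± 28.0 CPM in GFPpos against 87.1 ± 68.5 CPM in GFPneg cells, and passed edgeR's threshold in the blocked fit of pairs 2 and 3 only (log2 -1.60, adjusted p = 0.000766), while its replicate 1 pair went the other way (82.5 CPM in GFPpos, 29.5 CPM in GFPneg cells).

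Of 20 further genes that are often listed as YAP targets, 19 were tested. Negative fold changes were seen for 7 of 19 (median log2 0.11), and for 9 of 19 without GFPneg replicate 1 (median 0.05), and 0 passed with the 6 libraries. Arhgap29 stood at 68.9, 60.2 and 66.6 CPM in GFPneg and at 92.5, 88.0 and 231 CPM in GFPpos replicates 1, 2 and 3. Every GFPpos library was above every GFPneg library, as for 1322 of the 13873 genes tested (log2 1.08, SE 0.48, edgeR adjusted p = 0.920). Arhgap29 passed edgeR's threshold in the blocked fit of pairs 2 and 3 (log2 1.19, adjusted p = 0.0171). Its highest level was in GFPpos replicate 3, the library with the highest endothelial marker sum, and the part of endothelial RNA was not tested.

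The other genes of this group with the smallest p also differed in direction. Birc5, which encodes the mitotic protein survivin, averaged 17.8 ± 11.3 CPM in GFPpos against 2.77 ± 4.41 CPM in GFPneg cells, and Igfbp3, which encodes an IGF binding protein, 490 ± 229 and 261 ± 139 CPM. Edn1, which encodes endothelin-1, averaged 2.47 ± 2.25 and 9.34 ± 4.02 CPM (SD, n = 3). The matrix gene Thbs1 was the most abundant of the 19, also per kilobase, at 3639 ± 60.9 and 3227 ± 981 CPM, with a log2 fold change of 0.17 that was -0.04 without GFPneg replicate 1.

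Markers of other cell types moved with the groups beside these values. The summed level of the 9 basal markers was 6476 to 7786 CPM in GFPpos and 8522 to 13641 CPM in GFPneg libraries, without overlap, as for Axl and Lats2. Taken singly, 4 of the 9 basal markers had groups that did not overlap. Negative fold changes were seen for 8 of the 9, whereas Krt17 was at log2 0.39. The summed level of 10 fibroblast markers was 346 to 443 CPM in GFPpos and 777 to 1703 CPM in GFPneg libraries, also without overlap. Outside GFPneg replicate 1, Postn made up most of this sum (1152 and 1469 CPM in GFPneg replicates 2 and 3). Of the 7 tested fibroblast markers 6 had negative fold changes, whereas Fbln1 was at log2 0.32. Taken singly, 0 of the 7 had groups that did not overlap. Lum and Mfap5, a pair of defining fibroblast markers, had 0 counts in every library. Ctgf, Cyr61 and Axl are also expressed by fibroblasts, and the part of fibroblast RNA in their values was not tested.

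Pericyte and vascular smooth muscle markers (8 genes) summed to 181 to 528 CPM in GFPpos and 16.4 to 164 CPM in GFPneg libraries, without overlap. Schwann cell markers (7 genes) summed to 98.8 to 144 and 168 to 905 CPM, also without overlap, and immune markers (8 genes) to 5.62 to 24.8 and 7.39 to 32.8 CPM. S100b and Cdh19 had 0 counts in GFPpos libraries, and Csf1r and Adgre1 in all libraries. Skeletal muscle markers (6 genes) summed to at most 6.77 CPM in GFPpos and 26.2 CPM in GFPneg libraries, with Ckm at 0 in all. The values of 16.4 (pericyte), 32.8 (immune) and 26.2 CPM (skeletal muscle) came from GFPneg replicate 1, where a single count was worth 3.28 CPM. There 7 of 8 pericyte, 6 of 8 immune and 5 of 6 skeletal muscle markers had 0 counts. Immediate early and dissociation genes, to whose number Cyr61 and Ctgf are often added because serum and tissue handling raise them quickly, summed to 8374 to 10872 CPM in GFPpos and 8004 to 15300 CPM in GFPneg libraries. Of these 19 genes 15 had negative fold changes (median log2 -0.35), with 18 of 19 negative in replicates 2 and 3 and 5 of 19 in replicate 1. The part of sample handling in the members' values was not tested.

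**Figure D5:**
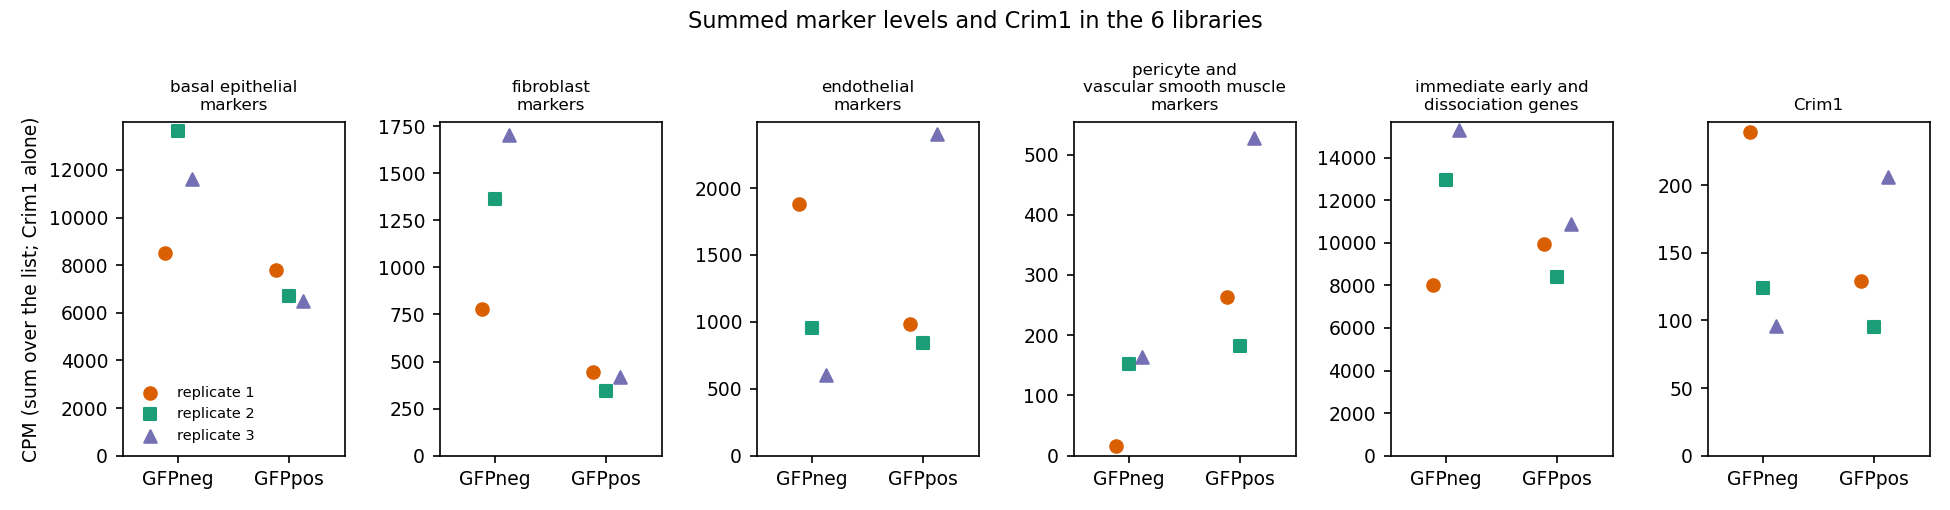
Summed CPM of 5 marker lists and the CPM of Crim1 (right) in each GFPneg and GFPpos library, on linear axes from 0, with colour and shape for the replicate. Basal and fibroblast sums do not overlap between groups, and the endothelial sum and Crim1 are both highest in GFPneg replicate 1 and GFPpos replicate 3.

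The genes whose pattern over the 6 libraries was most like that of Ctgf were Golim4 (Pearson's r of log2 CPM 0.99), Fbn1 (0.98), Cd164 (0.98), Acpp (0.98) and Rhob (0.97). Like Ctgf, each was highest in GFPneg replicate 2. Among the members Cyr61 was closest to Ctgf (r = 0.75), followed by Axl (0.60), Lats2 (0.59), Amotl1 (0.58), Ajuba (0.55), Ptpn14 (0.23), Amotl2 (0.03) and Crim1 (-0.45). These are descriptions over 6 libraries that share pools and, for GFPneg replicate 1, a low depth.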

How the data were processed

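Total RNA of sorted cells was sequenced in 6 libraries as paired reads. Files deposited by the authors hold raw counts, 1 row per gene symbol, and 5 summary rows that were left out. FastQC, cutadapt, TopHat2, HTSeq and build mm10 are named, per the submitters' processing notes. No version, annotation release, counting mode or strand setting is given in the sources used here. Antisense or overlapping genes lie over Ctgf, Amotl1, Crim1, Lats2 and Ptpn14 in GENCODE M21, so their counts are uncertain to that extent. Reads assigned to no feature made up 66.4% in GFPneg replicate 1 and 28.8% to 40.5% elsewhere.

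The main test was edgeR's quasi-likelihood test (edgeR 4.0.16, R 4.3.3; filterByExpr, TMM scaling, group as the only term, Benjamini-Hochberg over all genes, threshold 0.05). The SE is the unshrunk log2 fold change divided by the square root of F. Alternatives were the replicate block, DESeq2 1.42.0, limma-voom 3.58.1, other scaling and filters and leaving out libraries. Scripts were tested on simulated data. The design gives both fractions of a replicate the same pool, which pairs them. Their deviations from the group means correlated at -0.016, 0.095 and 0.011 in replicates 1, 2 and 3. P-values of fits without a block measure the spread between libraries of the same group, which come from different pools. In edgeR's fits without a block that spread is also drawn mostly from a value shared over genes. The SE and p of a single gene therefore reflect its own libraries only in part. With the block, differences shared by both fractions of a pool are removed. The p-values then rest mostly on a spread shared over genes. Exon lengths are unions of GENCODE M21 exons. Named genes were the members, YAP, TAZ and TEAD genes, CCN and TAM families, the 4 smallest p of each pathway list and the 5 genes most like Ctgf. A gene that this rule names is not reported here. Thbs1 was named after its values were seen. The members and lists were chosen with earlier results of these data known.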

Additional observations from a re-analysis of the deposited data

How the results depend on the processing

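In each of the 14 alternative fits 0 YAP target genes were called, with or without the replicate block, and 113 of 126 single fold changes kept their direction. The count of all genes called moved from 9 to 61 with the replicate block, 98 with DESeq2, 78 with limma-voom, 301 with no low count filter and 602 with the replicate block without replicate 1, and lay between 3 (without GFPpos replicate 3) and 92 (without GFPneg replicate 1) when 1 library was left out. Without GFPneg replicate 3 it was 19. The replicate block without replicate 1 called 3 of 63 Hippo and further target genes, beside 3.92% of all genes, against 0 in the other fits. The members' median log2 fold change was -0.36 with library size only, where the median of all genes was 0.31 against 0.15. It was -0.65 to -0.50 when 1 library was left out. Those last medians cover 9 or 10 members, since Ankrd1 passed the low count filter in some of these fits. Members lower in GFPpos cells without overlap numbered 7 without GFPneg replicate 1, a setting added after the data were seen, against 2.

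Reversals, none of them past the threshold, were seen for 4 genes. Amotl2 was -0.22 with limma-voom, -0.38 with the replicate block without replicate 1 and -0.37 to 0.44 when 1 library was left out. Crim1 was 0.27 with limma-voom, 0.39 with library size only, 0.38 with the replicate block without replicate 1 and -0.42 to 0.40 when 1 library was left out. Ptpn14 was 0.18 with the replicate block and -0.64 to 0.40, and Amotl1 -0.62 to 0.0045, when 1 library was left out. The cause was not tested. The depth of GFPneg replicate 1 limits Ajuba (1 count), Amotl2 (7 counts) and Ankrd1 (0 counts).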
